A study of Rattus norvegicus with 10 samples.

Results

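Protein kinase C isoforms were followed across 5 regions of the rat brain, as 5 genes: Prkca, Prkcb, Prkcd, Prkce and Prkcz. All probe sets annotated to 1 of these symbols alone were taken, which gave 12 of 8740 non-control probe sets on the array. Of these, 3 belonged to Prkcb, 2 to Prkcd, 4 to Prkce, 2 to Prkcz and 1 to Prkca. A total of 10 probe sets passed the filter on mean signal and were tested. The other 2 were the single probe set of Prkca and one of the pair for Prkcz. Their mean indices of 1745 and 1498 lay under the minimum of 1824. They have no test of region or of cocaine, and that of Prkca enters only the comparison of isoform pairs.

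RNA came from cocaine-treated and saline-treated rats, with 1 array per treatment in the amygdala (AMY), caudate putamen (CPU), nucleus accumbens (NA), prefrontal cortex (PFC) and ventral tegmental area (VTA), 10 arrays in all. Cocaine blocks the reuptake of dopamine, whose neurons lie in the VTA and send axons to the other regions. The labels used here state neither dose, route, length of treatment, strain, age and sex nor how many rats stand behind an array. The p-values therefore measure the spread between these arrays, which may be technical, and precision is limited by how few arrays there are. The arrays of a region differ in treatment, so that spread also holds any cocaine difference particular to a region.

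Protein kinase C enzymes are serine and threonine kinases that act downstream of receptors coupled to Gq. Such receptors activate phospholipase C, which makes diacylglycerol and, through inositol trisphosphate, releases calcium. Prkca and Prkcb encode the conventional isoforms alpha and beta, which need calcium and diacylglycerol. Prkcd and Prkce encode delta and epsilon, which respond to diacylglycerol but not to calcium. Prkcz encodes the atypical isoform zeta, which responds to neither, and in brain a shorter form without the regulatory part (PKMzeta) starts from an internal promoter of the same gene. In neurons these kinases act on ion channels, transmitter release and receptor trafficking.

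The genes lie on chromosomes 10 (Prkca, 93388991 to 93787617), 1 (Prkcb, 186263397 to 186594743), 16 (Prkcd, 5775681 to 5806122), 6 (Prkce, 13718050 to 14204931) and 5 (Prkcz, 171101774 to 171212694) of the RefSeq rat assembly GRCr8. RefSeq promoter sequence was matched for 4 of the 5 genes: Prkca, Prkcd, Prkce and Prkcz. The 250 bases before the start given in the RefSeq promoter table are shown, 5' to 3', for Prkce (chr6:14204289-14204538, minus strand) and Prkcz (chr5:171212675-171212924, minus strand), because the difference between these isoforms changed with region. That start lies inside the outer bounds of each gene, which hold all 250 bases of the Prkce window and 20 of those of Prkcz. Capitals mark the GC box (GGGCGG or CCGCCC) and the CCAAT box (CCAAT or ATTGG), searched on both strands.
Prkce: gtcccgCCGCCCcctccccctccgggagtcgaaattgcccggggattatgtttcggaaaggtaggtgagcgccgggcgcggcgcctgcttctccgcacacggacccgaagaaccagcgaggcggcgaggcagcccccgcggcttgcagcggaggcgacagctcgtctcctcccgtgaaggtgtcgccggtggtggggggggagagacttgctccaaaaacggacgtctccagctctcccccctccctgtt
Prkcz: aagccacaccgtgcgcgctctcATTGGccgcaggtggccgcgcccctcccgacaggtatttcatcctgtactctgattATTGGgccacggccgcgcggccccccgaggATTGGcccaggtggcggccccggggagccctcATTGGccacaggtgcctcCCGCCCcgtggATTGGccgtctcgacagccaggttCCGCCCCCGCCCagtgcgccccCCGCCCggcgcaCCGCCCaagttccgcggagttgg
The Prkce window held 1 GC box and no CCAAT box, while the Prkcz window held 5 of each, with adjoining GC boxes in one run of capitals. The windows of Prkca and Prkcd held 2 and 5 GC boxes and no CCAAT box. Of 33469 rat promoters of the same length, 30.5% held at least 1 GC box and 34.0% at least 1 CCAAT box, and 60 (0.179%) held 5 or more CCAAT boxes. A TATA box (TATAAA or TTTATA) was present in the Prkcd window, as in 12.9% of promoters, and no window of the 4 genes held a cyclic AMP response half-site (TGACG or CGTCA), which 18.2% of promoters held. These matches describe letters in the windows and are not binding sites, and the internal start of PKMzeta is outside the window shown.

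Values are the expression index of dChip, a linear intensity, and tests were run with limma on its log2 over 5244 probe sets. Region tests covered 5232 of these, as the rest had too few values above 0. P-values were adjusted by Benjamini-Hochberg over all probe sets of a test, with a threshold of 0.05. Median indices ranged between 2208 and 2310 over the arrays. The arrays held 8 to 226 exact zeros, with most on the array labelled PFC cocaine and none in a protein kinase C probe set. Of 7 tested markers of dopamine neurons, 3 were higher in VTA (Th, Aldh1a1 and Calb2), while Ddc, Slc6a3, Nr4a2 and Ret did not pass. Nr4a2 was listed at 0 on the AMY cocaine array and also on some array outside AMY. Of 9 markers of striatal neurons, 8 were higher in CPU. The cocaine and saline arrays correlated with each other at r of 0.992 in CPU, 0.988 in NA and 0.978 in VTA, each other's closest match.
The arrays labelled AMY and PFC did not pair in this way. Their r within a region was 0.940 in AMY and 0.953 in PFC. The library labelled AMY cocaine was closest to NA cocaine (0.970) and nearly as close to PFC saline (0.969), while the library labelled AMY saline and that labelled PFC cocaine were each other's closest match (0.966). Summed markers did separate both labels: the 9 striatal markers came to 50763 to 51959 on the AMY arrays and 24660 to 25544 on the PFC arrays, and 5 markers of excitatory neurons to 82270 to 87780 and 106192 to 109221. Labels were kept as deposited. The VTA differences and the counts of calls are given with and without these 4 arrays. Differences of AMY or PFC from other regions exist only with them, and no isoform pair could pass without them.

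**Figure D1:**
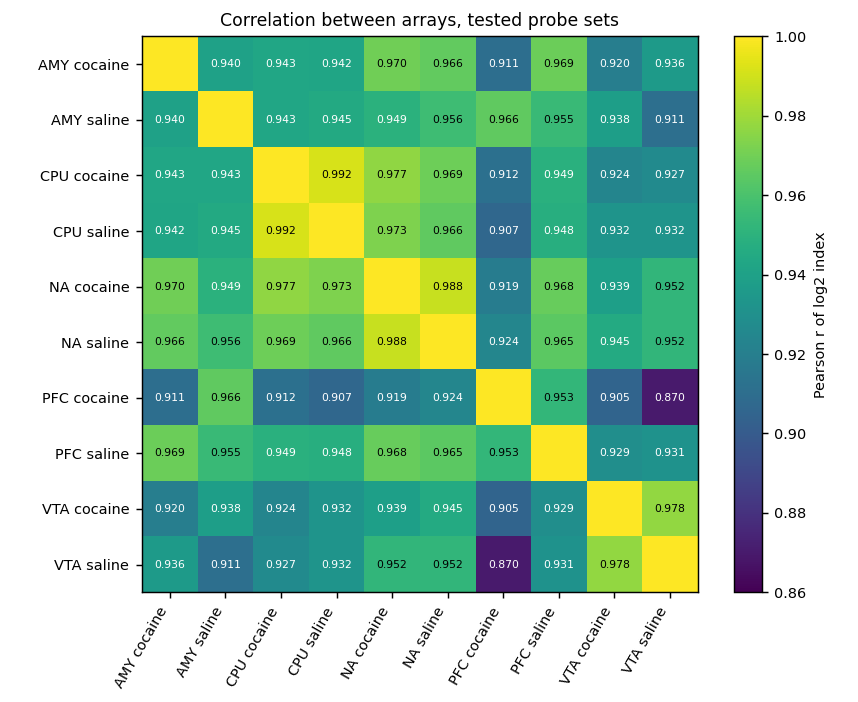
Pearson correlation of log2 index between each pair of the 10 arrays over the tested probe sets, with the colour scale and the printed number both giving r. The CPU, NA and VTA arrays pair by region with r of 0.978 to 0.992, while the AMY saline and PFC cocaine arrays reach 0.966 with each other.

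The level of Prkcb and, less uniformly, that of Prkce differed between regions, while no region difference passed the test for Prkcd. Across the 5 regions, 4 of the 10 tested probe sets differed by the moderated F-test, all 3 of Prkcb and 1 of 4 of Prkce, against 9.25% of all tested probe sets. Set against the mean of the other 4 regions, VTA was lower on 5 member probe sets, all of Prkcb or Prkce. PFC was higher on 3 and CPU on 1, all of Prkcb. With all 10 arrays no member was called in AMY or NA, and none in the opposite directions. Over all tested probe sets, the share called higher was 0.401% in AMY, 1.74% in CPU, 0.459% in NA, 1.36% in PFC and 7.82% in VTA. The share called lower was 0.21% in AMY, 2.35% in CPU, 0.0765% in NA, 3.69% in PFC and 3.23% in VTA.

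**Figure D2:**
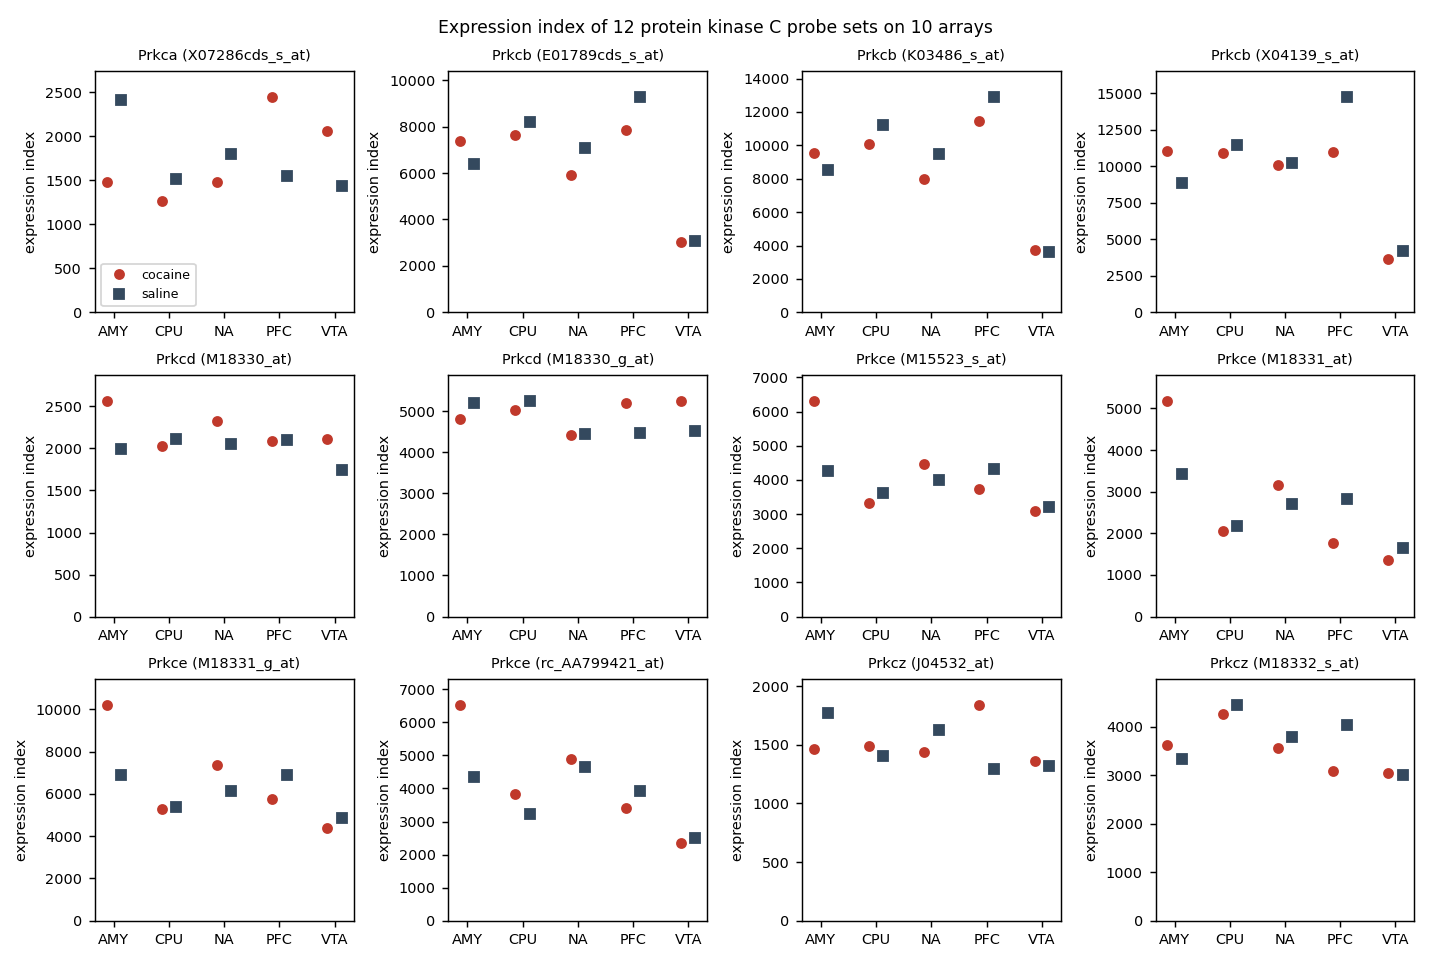
Expression index (linear, from 0) of the 12 probe sets by region, with cocaine arrays as circles and saline arrays as squares, 1 array per point. All 3 Prkcb probe sets sit lowest in VTA, between 3023 and 4189, and the 4 Prkce probe sets are highest on the AMY cocaine array.

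Prkcb, the conventional isoform abundant in forebrain neurons, was 2.43-fold to 2.81-fold lower in VTA than in the other regions. On probe set X04139_s_at the index was 3626 and 4189 in VTA cocaine and saline. Elsewhere the cocaine and saline indices were 11064 and 8894 in AMY, 10915 and 11497 in CPU, 10096 and 10222 in NA, and 10987 and 14783 in PFC. Both VTA arrays thus lay below all 8 others, by a gap wider than the spread within any region. On K03486_s_at the VTA cocaine and saline arrays had 3758 and 3596. The other cocaine and saline arrays had 9549 and 8523 in AMY, 10072 and 11200 in CPU, 8002 and 9467 in NA, and 11462 and 12925 in PFC. This probe set separated the VTA arrays from the rest in the same way and put both PFC arrays above all others. On E01789cds_s_at the VTA cocaine and saline arrays had 3023 and 3075, and the other cocaine and saline arrays 7391 and 6408 in AMY, 7630 and 8186 in CPU, 5899 and 7062 in NA, and 7869 and 9296 in PFC. The regional means were 3908 ± 398, 3677 ± 115 and 3049 ± 36.5 in VTA on the 3 probe sets (SD, n = 2, over 1 cocaine and 1 saline array). The 3 probe sets followed one another over the 10 arrays (r of 0.981 to 0.997), and they share a target, so they do not count as repeats of a region.

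In log2 terms VTA stood at -1.49 ± 0.13 (SE) on X04139_s_at, with an adjusted p of 0.000356, and at -1.45 ± 0.10 on K03486_s_at, with an adjusted p of 0.000131. On E01789cds_s_at it stood at -1.28 ± 0.10 (adjusted p = 0.000242). The median over all tested probe sets in this contrast was 0.02. Without the AMY and PFC arrays the VTA differences from the mean of CPU and NA were -1.45, -1.39 and -1.23, with adjusted p of 1.00e-07, 2.37e-07 and 5.14e-07.
PFC was 1.56-fold, 1.64-fold and 1.495-fold higher than the mean of the other regions on X04139_s_at, K03486_s_at and E01789cds_s_at (adjusted p = 0.0299, 0.00741 and 0.0199), a mean to which the low VTA arrays belong. These calls rest on the 2 PFC arrays: without either the PFC cocaine or the PFC saline array none of the 3 passed, with adjusted p between 0.0537 and 0.164. Leaving out either CPU array, the NA cocaine array or either VTA array also ended the PFC call on X04139_s_at, as did leaving out the NA saline array, and on E01789cds_s_at the same CPU, NA cocaine and VTA arrays ended it. With no filter on mean index all 3 PFC calls were lost (adjusted p of 0.0573 to 0.152), and that on X04139_s_at also with zeros raised to the floor (0.0657) or median scaling (0.0583). The call of CPU on K03486_s_at, 1.38-fold higher (adjusted p = 0.0386), was lost without any 1 of the CPU, NA or VTA arrays or the PFC cocaine array, with no filter (0.115) and when zeros were raised to the floor (0.0763). The F-test on X04139_s_at (adjusted p = 0.00257) had an adjusted p of 0.0588 without the VTA cocaine array.
Markers of cell types also differed between VTA and other regions, though not always in the order of Prkcb. Summed over 5 tested markers of excitatory neurons of cortex and amygdala, the index was 25582 to 31923 in VTA, against 82270 to 87780 in AMY, 53272 to 55049 in CPU, 47831 to 50448 in NA and 106192 to 109221 in PFC, and 4 of the 5 were lower in VTA. For 9 striatal markers the sum was 31414 to 32297 in VTA, with 7 lower in VTA. It was 50763 to 51959 in AMY, 121507 to 123204 in CPU, 83757 to 85656 in NA and 24660 to 25544 in PFC. For 9 myelin markers the sum was 135864 to 153341 in VTA, with 5 higher in VTA, although Sirt2 was listed at 0 on some arrays. It was 101362 to 111394 in AMY, 143688 to 154551 in CPU, 112767 to 114870 in NA and 80592 to 95806 in PFC. PFC thus lay below VTA in the striatal sum, and CPU overlapped VTA in the myelin sum. The part of cell composition in the Prkcb difference was not tested, and in tissue RNA fewer cells of a type and less RNA per cell cannot be told apart.

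**Figure D3:**
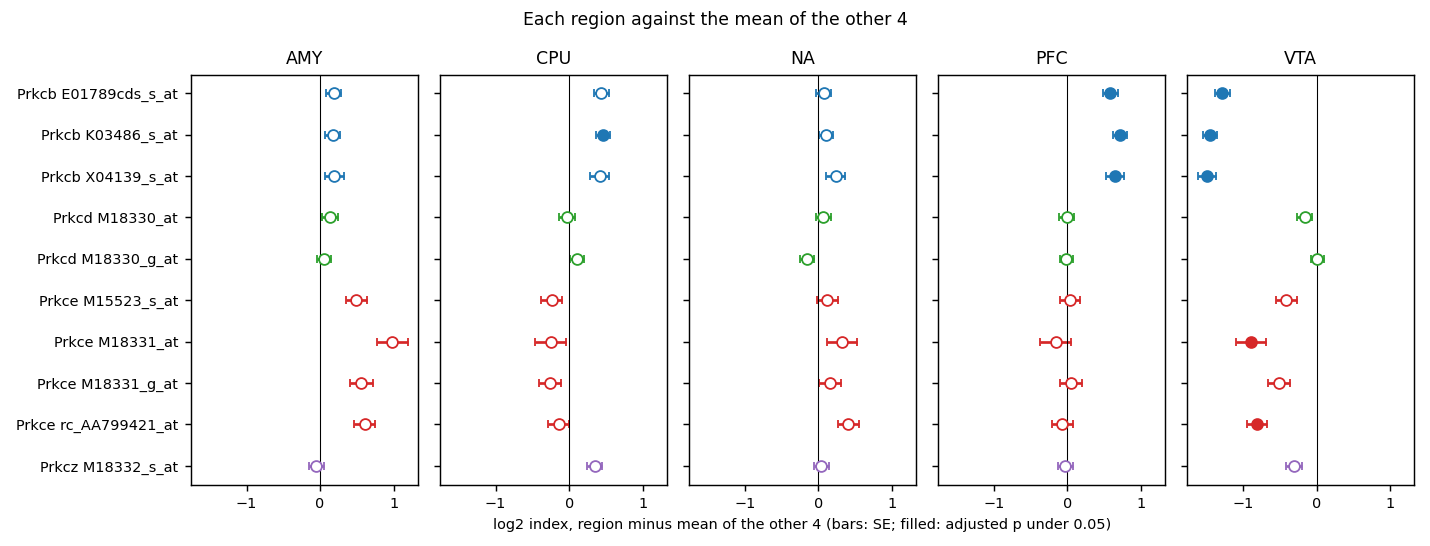
Difference in log2 index between each region and the mean of the other 4 for the 10 tested probe sets, with bars of 1 SE and filled points where the adjusted p is under 0.05. Prkcb lies at -1.28 to -1.49 in VTA with all 3 points filled, and Prkce lies at 0.49 to 0.98 in AMY with none filled.

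Prkce, the epsilon isoform linked in rodents to responses to alcohol and to pain, had the same order of regional means on all 4 probe sets: AMY, NA, PFC, CPU and VTA, from high to low. On M18331_g_at the cocaine and saline indices were 10214 and 6901 in AMY, 5279 and 5384 in CPU, 7355 and 6118 in NA, 5764 and 6901 in PFC, and 4379 and 4876 in VTA. The AMY cocaine array stood alone at the top and both VTA arrays at the bottom, while the AMY saline array fell within the range of NA and PFC. On rc_AA799421_at the cocaine and saline values were 6527 and 4354 in AMY, 3848 and 3221 in CPU, 4886 and 4661 in NA, 3406 and 3938 in PFC, and 2345 and 2513 in VTA. On M18331_at the cocaine and saline indices were 5184 and 3417 in AMY, 2064 and 2186 in CPU, 3151 and 2703 in NA, 1762 and 2831 in PFC, and 1347 and 1643 in VTA. Here both AMY arrays lay above all others. On M15523_s_at the cocaine arrays and their saline partners had 6319 and 4261 in AMY, 3315 and 3617 in CPU, 4466 and 3989 in NA, 3737 and 4331 in PFC, and 3082 and 3196 in VTA. The VTA arrays were the lowest of all on each of the 4 probe sets, and they lay apart from the next region, CPU. Neighbours above that overlapped on some probe sets and not on others, AMY with NA and NA with PFC on 3 of 4 and PFC with CPU on 2 of 4. The probe sets correlated with one another at r of 0.899 to 0.990, and M18331_at and M18331_g_at derive from the same sequence.

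VTA was lower than the mean of the other regions for Prkce on rc_AA799421_at, by 1.75-fold (log2 -0.81 ± 0.14, adjusted p = 0.0105), and on M18331_at, by 1.86-fold (-0.89 ± 0.21, adjusted p = 0.0304). On M18331_g_at and M15523_s_at the differences were 1.43-fold and 1.33-fold, with adjusted p of 0.0723 and 0.125. Without either VTA array the first 2 calls were lost (adjusted p of 0.0664 to 0.364), and the call on M18331_at was also lost without any 1 of the CPU or NA arrays. With no filter both were lost (adjusted p of 0.0761 and 0.168), and that on M18331_at also with zeros raised to the floor (0.0683) or quantile normalization (0.0523). Without the AMY and PFC arrays, VTA was lower than the mean of CPU and NA on all 4 probe sets, with log2 differences of -0.28 to -0.76 and adjusted p of 7.59e-05 to 0.0448. In that comparison 8 of the 10 tested member probe sets were lower in VTA, against 4.75% of all tested probe sets. In the F-test over the 3 regions 8 of 10 passed, against 17.9%. All 8 belong to Prkcb, Prkce and Prkcz, and probe sets of a gene do not count as separate repeats. The 2 that did not pass were those of Prkcd. In the same fit NA was higher than the mean of CPU and VTA on 7 probe sets, those of Prkcb and Prkce, against 3.28% of all tested probe sets. The difference was log2 0.71 (adjusted p = 0.000617) for Prkce on rc_AA799421_at. CPU was higher than the mean of NA and VTA on 4, those of Prkcb and the tested one of Prkcz, against 3.55%. The low VTA arrays belong to both of these means, and on every Prkcb probe set both NA arrays lay below both CPU arrays.
AMY was 1.41-fold to 1.98-fold higher than the mean of the other regions on the 4 Prkce probe sets, and none of these differences passed (adjusted p of 0.109 to 0.263). Without the AMY saline array all 4 passed, at 1.75-fold, 2.62-fold, 1.83-fold and 1.86-fold on M15523_s_at, M18331_at, M18331_g_at and rc_AA799421_at, with adjusted p of 0.00899 to 0.0107. Without the AMY cocaine array the folds were 1.13, 1.49, 1.20 and 1.25 on the same probe sets, none past the threshold (adjusted p of 0.174 to 0.401), so the size of the AMY difference rests largely on that array. The fit without AMY saline called 2.34% of all tested probe sets higher in AMY, and its AMY value is the AMY cocaine array alone, assumed to vary like the other regions. Without the PFC saline array M18331_at was 2.12-fold higher in AMY. Without the PFC pair of arrays it was 2.01-fold higher than the mean of the remaining regions and passed (adjusted p = 0.0285). The other Prkce probe sets did not pass in that fit (adjusted p of 0.0616 to 0.114), which called 0.993% of all tested probe sets higher in AMY. The F-test over regions passed on rc_AA799421_at (adjusted p = 0.0293), and its adjusted p lay between 0.0999 and 0.191 without any 1 of the CPU, NA or VTA arrays. On M18331_at, M18331_g_at and M15523_s_at it did not pass (adjusted p = 0.0514, 0.110 and 0.160).

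Prkcz, the zeta isoform, varied less. On M18332_s_at the cocaine and saline indices were 3629 and 3340 in AMY, 4261 and 4447 in CPU, 3559 and 3789 in NA, 3081 and 4043 in PFC, and 3046 and 3008 in VTA. Both CPU arrays lay above all others and both VTA arrays below all others. CPU was 1.27-fold higher and VTA 1.24-fold lower, with adjusted p of 0.128 and 0.116, and the F-test did not pass (adjusted p = 0.206). Without the AMY and PFC arrays VTA was lower at log2 -0.40 (adjusted p = 0.00381), CPU was higher at 0.38 (adjusted p = 0.00687) and the F-test passed (adjusted p = 0.00462). The dim probe set J04532_at, which lay between 1291 and 1839 over the 10 arrays, did not follow M18332_s_at (r = -0.219).

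Prkcd, the delta isoform, did not differ between regions by more than the spread between arrays on either probe set. On M18330_g_at the cocaine and saline indices were 4804 and 5193 in AMY, 5027 and 5256 in CPU, 4433 and 4457 in NA, 5190 and 4464 in PFC, and 5254 and 4527 in VTA. The highest array was 1.19-fold above the lowest, and both NA arrays were the lowest by a margin smaller than the spread within other regions. On M18330_at the cocaine and saline values were 2568 and 1994 in AMY, 2032 and 2113 in CPU, 2325 and 2052 in NA, 2088 and 2097 in PFC, and 2115 and 1748 in VTA. The adjusted p of the F-test was 0.837 and 0.843 on the 2 probe sets. They derive from the same sequence but did not follow each other over the arrays (r = -0.0057), so each array's deviation was not shared between them.
Prkca, the alpha isoform, had its only probe set, X07286cds_s_at, below the minimum. Its cocaine and saline indices were 1480 and 2415 in AMY, 1268 and 1513 in CPU, 1479 and 1796 in NA, 2452 and 1547 in PFC, and 2064 and 1434 in VTA. The regions overlapped throughout, and the highest values fell on PFC cocaine, AMY saline and VTA cocaine. These are also the 3 arrays with the most exact zeros over all probe sets, 226, 91 and 120, and the part of this in the Prkca values was not tested.

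The isoforms differed from one another in their regional profile. For each pair of genes, the log2 difference within an array was taken on the brightest probe set of each, and an exact permutation test over all 945 ways of pairing the 10 arrays asked whether arrays of a region shared it. Such a difference compares profiles over arrays, since levels of different probe sets are not on one scale. Of 10 pairs, 3 passed after adjustment over the pairs. Prkcb over Prkce in cocaine and saline arrays was -0.27 and -0.22 in VTA, 0.12 and 0.37 in AMY, 0.46 and 0.74 in NA, 0.93 and 1.10 in PFC, and 1.05 and 1.09 in CPU. The VTA and AMY arrays were low and the CPU and PFC arrays high, with no overlap between VTA and any other region, and the means of CPU and VTA differed 2.49-fold (exact p = 0.00317, adjusted p = 0.0265).
Prkcb over Prkcz was 0.25 and 0.48 in VTA cocaine and saline and between 1.36 and 1.87 on the other 8 arrays. PFC and VTA differed 2.80-fold in this ratio (exact p = 0.00529, adjusted p = 0.0265). Prkce over Prkcz in cocaine and saline arrays was 1.49 and 1.05 in AMY, 0.31 and 0.28 in CPU, 1.05 and 0.69 in NA, 0.90 and 0.77 in PFC, and 0.52 and 0.70 in VTA. AMY and CPU differed 1.97-fold, with both CPU arrays below all others (exact p = 0.0148, adjusted p = 0.0494). The pairs with Prkcd or Prkca had adjusted p of 0.228 to 0.720, and those with Prkca rest on a probe set under the minimum. Without the NA pair of arrays 2 isoform pairs passed, and without the AMY, CPU, PFC or VTA pair none did. With 4 region pairs the smallest exact p is 0.00952, at which a lone isoform pair cannot pass after adjustment over 10, so a lost call there says little about any 1 region. Without the AMY and PFC arrays the smallest exact p that 3 region pairs allow is 0.0667, so no pair could pass.

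**Figure D4:**
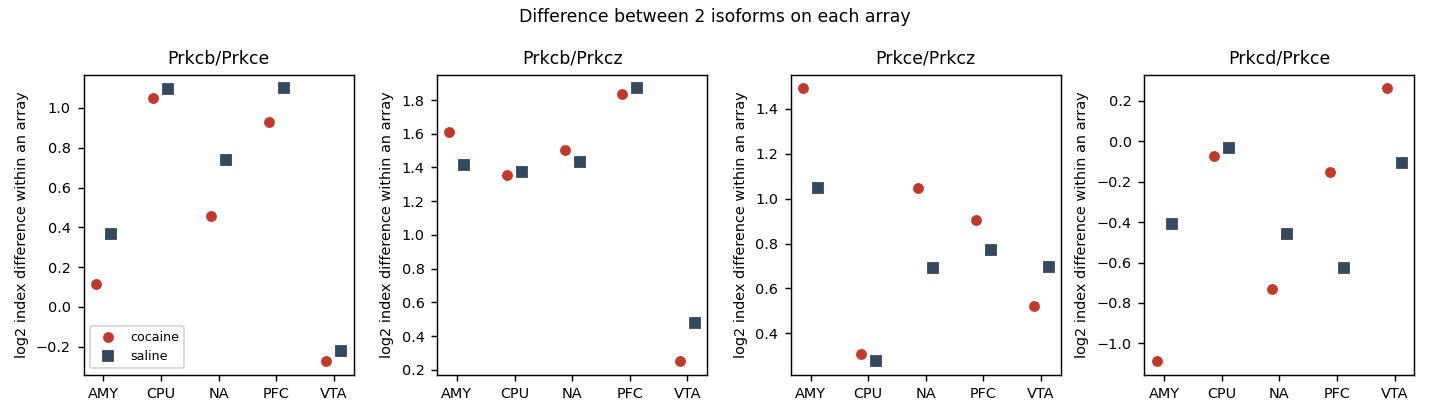
Difference in log2 index between the 2 isoforms of a pair within each array, by region, with cocaine arrays as circles and saline arrays as squares; zero has no meaning across probe sets, and the axes do not start at 0. Prkcb over Prkce and Prkcb over Prkcz are lowest in VTA, Prkce over Prkcz is lowest in CPU, and Prkcd over Prkce, which did not pass, shows arrays of a region apart.

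No isoform passed the test of cocaine against saline across the 5 regions. With region as a block, 0 of 10 tested member probe sets passed, and 0% of all 5244 tested probe sets did. At an unadjusted p under 0.05 the counts were 0 of 10 member probe sets and 69 of 5244 probe sets (1.32%). The log2 differences, cocaine minus saline, were -0.08 ± 0.10 (SE) for Prkcb on X04139_s_at, 0.08 ± 0.12 for Prkce on M18331_g_at, -0.08 ± 0.08 for Prkcz on M18332_s_at and 0.05 ± 0.07 for Prkcd on M18330_g_at. The smallest unadjusted p among members was 0.112, for Prkcd on M18330_at (0.15 ± 0.08). All 10 adjusted p were 0.9999. The sign for M18331_g_at turned without the AMY arrays (-0.04) and that for X04139_s_at without the PFC arrays (0.0035).

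Within single regions, where 1 array stands against 1 array and no test is possible, the 4 Prkce probe sets gave like ratios in AMY. The AMY cocaine array was above the AMY saline array on all 4 probe sets by log2 0.57, 0.60, 0.57 and 0.58, ratios that lay at the 98.3rd to 98.8th percentile of tested probe sets. One of them, M18331_at, passed a fold of 1.5 (1.52-fold), as did 1.42% of probe sets in that direction. In PFC the cocaine array was below the saline array on all 4, with a median log2 ratio of -0.24, and M18331_at was 1.61-fold lower, against 1.74% of probe sets past 1.5-fold lower. In NA the ratios were 0.07 to 0.27, at the 78.3rd to 98.2nd percentile there, and in VTA -0.29 to -0.05, at the 5.6th to 32.3rd. In CPU rc_AA799421_at had 0.26, at the 99.0th percentile. The other Prkce probe sets had -0.13 to -0.03 in CPU, at the 18.1st to 49.7th. Cocaine was thus above saline in AMY and NA and below it in PFC and VTA on every Prkce probe set, with mixed signs in CPU.
Prkcb ratios were 0.16 to 0.31 in AMY, -0.15 to -0.07 in CPU, -0.26 to -0.02 in NA, -0.43 to -0.17 in PFC and -0.21 to 0.06 in VTA. For Prkca, cocaine was below saline by log2 -0.71 in AMY and above it by 0.67 in PFC and 0.53 in VTA, on a probe set under the minimum. Prkcd was above saline on both probe sets in VTA (0.28 and 0.21). Over all tested probe sets, which share no arrays between regions, the cocaine ratios of AMY correlated with those of PFC at r of -0.625 and with those of VTA at -0.588, and those of PFC with those of VTA at 0.575. Opposite ratios in AMY and PFC were thus general on these arrays, and the part of the libraries in the Prkce, Prkcb and Prkca ratios was not tested. Without the AMY and PFC arrays, none of the 10 member probe sets passed in the cocaine comparison.

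**Figure D5:**
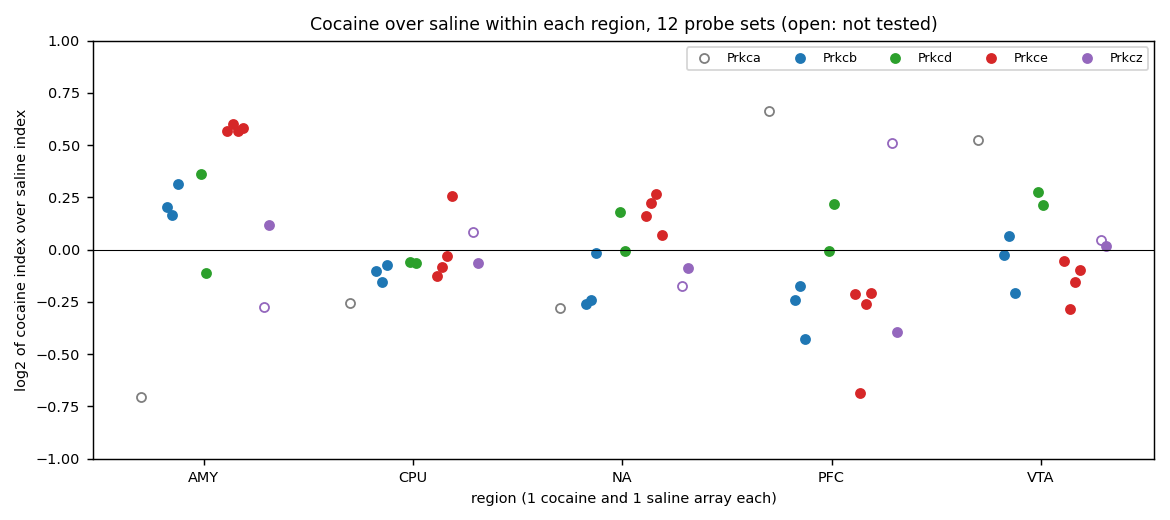
Log2 ratio of the cocaine array over the saline array in each region for the 12 probe sets, with 1 array per treatment and open points for the 2 probe sets under the minimum. Prkce lies at 0.57 to 0.60 in AMY and at -0.68 to -0.21 in PFC, and Prkca takes the opposite signs.

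The wider pathway was read on lists of genes chosen with earlier results known, with the brightest probe set standing for each gene. Over 3243 tested genes, 268 passed the F-test, 221 were higher and 103 lower in VTA, and 61 were higher and 70 lower in CPU. Among receptors coupled to Gq, 1 of 15 tested genes passed the F-test, the serotonin receptor Htr2c (adjusted p = 0.0401), whose largest difference, 1.40-fold in NA, did not pass, and which was lower in PFC (log2 -0.40, adjusted p = 0.0451). The glutamate receptor Grm5, named after its values were seen, was the 1 gene of that list lower in VTA (log2 -0.39, adjusted p = 0.0453), with an F-test that did not pass (0.0817). Among G alpha q subunits and phospholipases C, 1 of 7 passed, Plcb4, at 3040 and 2644 in VTA cocaine and saline against 1940 to 2643 elsewhere (1.35-fold higher, adjusted p = 0.0178). Of 6 inositol trisphosphate receptors and diacylglycerol kinases, 2 passed. Itpr1, the calcium release channel opened by inositol trisphosphate, had 2172 and 2334 in VTA cocaine and saline against 5777 to 11617 elsewhere (3.35-fold lower, adjusted p = 3.29e-05). Dgkz, which removes diacylglycerol, was 1.40-fold higher in PFC (adjusted p = 0.0207) and lower in VTA (log2 -0.43, adjusted p = 0.0169).
Among other proteins that bind diacylglycerol, 3 of 5 passed. Rasgrp1, an exchange factor for Ras, had 1353 and 1097 in VTA cocaine and saline against 3044 to 5667 elsewhere (3.31-fold lower, adjusted p = 0.000356), and Chn1, a GTPase-activating protein for Rac that acts in axon guidance, had 9738 and 12408 against 22962 to 34047 (2.57-fold lower, adjusted p = 0.000242). Chn2 was 1.69-fold lower in PFC (adjusted p = 0.0135). Of 17 substrates, 6 passed, 3 of 17 were higher and 2 lower in VTA, and 4 were lower in CPU. Nrgn, a postsynaptic calmodulin-binding substrate that is also on the list of excitatory markers, had 6768 and 7392 in VTA cocaine and saline against 16794 to 39827 (4.05-fold lower, adjusted p = 3.29e-05). Basp1 was 2.04-fold lower in CPU (adjusted p = 0.000603), and Gria2, an AMPA receptor subunit, was 1.57-fold lower in VTA (adjusted p = 0.00174). Snap25, a SNARE protein of transmitter release, was 1.55-fold higher in PFC (adjusted p = 0.0234). Among 9 scaffolds and regulators 2 passed: Ywhag was 1.56-fold lower in CPU (adjusted p = 0.00768), and Pebp1 1.495-fold higher in VTA (adjusted p = 0.0169). The only other protein kinase C gene tested, Prkch, did not pass (adjusted p = 0.650). Cocaine passed for no gene of these lists, and the smallest unadjusted p was 0.0558 for Chn1 (log2 -0.19 ± 0.08).

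The genes whose log2 index was most like that of each isoform were ranked by Pearson r over the 10 arrays among 4042 probe sets with 1 symbol, as a description. For Prkcb they were Chn1 (0.975), Gas7 (0.964) and Zfp180 (0.963), and for Prkcz Klf9 (0.931), Gde1 (0.920) and Grm3 (0.918). For Prkce they were Slc22a7 (0.918) and both probe sets of Prickle2 (0.913 and 0.911). For Prkcd, whose index hardly varied, they were Bcl2l11 (0.921), Cyb5r3 (0.918) and Cyp2d3 (0.908). The arrays share region and library, so such likeness says nothing of shared control.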

How the data were processed

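Per the labels, the authors computed the deposited values as the expression index of dChip, a linear intensity fitted from the probes of a probe set. The program version, the model and any scaling were not given in the sources used here. Sample titles gave the groups, and gene symbols came from the platform annotation, which gave 1 symbol for 7006 of 8740 non-control probe sets.

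No further normalization was applied. Exact zeros (593 values) were treated as missing, values under the 20th percentile of those above 0 (1028) were raised to it, and the 5244 probe sets whose mean index lay in the top 60% were tested on the log2 scale in limma 3.58.1 (R 4.3.3; eBayes with a trend on intensity). Regions were compared with treatment as a term, by a moderated F-test and by contrasts of a region with the mean of the remaining 4. Cocaine was compared with saline with region as a block. P-values were adjusted by Benjamini-Hochberg over all tested probe sets, 5232 for regions and 5244 for cocaine. Isoform differences were tested with an exact permutation test over 945 pairings (Python 3.11.15), two-sided by construction. Scripts were tested on simulated data.

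The members, gene lists and tests were chosen with earlier results of these data known. Named genes are all member probe sets, the 3 most alike probe sets per isoform, and up to 4 genes per list with the largest region difference and up to 2 with the smallest cocaine p. Alternatives were zeros raised to the floor, median scaling, quantile normalization, no floor, no filter, no trend, no region block and leaving out each array or pair; the one without the AMY and PFC arrays was chosen after seeing the data.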

Additional observations from a re-analysis of the deposited data

Results flagged for a closer look

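Prkcb on X04139_s_at was flagged because the VTA cocaine array, with an index of 3626, lay far from the other 4 cocaine arrays. On the log2 scale its gap to the nearest of them was 0.918 of the range of the 5. Of 36 groups of 5 arrays examined, this was the single flag, and chance flags about 1 in 20 groups.

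Within-region cocaine ratios differed in sign between regions for Prkcb and Prkce. For Prkcb, the median log2 ratio of AMY minus that of NA was 0.45, and that of AMY minus that of PFC was also 0.45, with every one of 3 probe sets above 0 in AMY and below 0 in NA and PFC. For Prkce, the median of AMY minus that of PFC was 0.81 over 4 probe sets, all above 0 in AMY and all below 0 in PFC. Each region had 1 array per treatment, so these differences were not tested, and they involve the arrays labelled AMY and PFC that did not pair by region.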

How the results depend on the processing

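Prkcb stayed lower in VTA and past the threshold under all 17 alternatives on each of its 3 probe sets, with log2 differences of -1.57 to -1.23. The count of member probe sets with a regional F-test past the threshold was 4. It was 2 with no filter on mean index, 8 without the AMY and PFC arrays, and 2 to 7 when 1 array was left out, with 2 without VTA cocaine and 7 without AMY saline. Calls of a region against the others numbered 9 in all. They were 3 with no filter, 19 without the AMY and PFC arrays, and 4 to 18 when 1 array was left out, with 4 without either VTA array and 18 without AMY saline. Of the 10 isoform pairs 3 passed, against 0 without the AMY and PFC arrays, where none could, and 0 to 2 when a region pair was left out, where a lone isoform pair could not pass. The cocaine count was 0 under every alternative run. Cocaine minus saline turned sign for Prkce on M18331_g_at, with -0.0444 to 0.162 over left-out pairs, and for Prkcb on X04139_s_at, with -0.182 to 0.00353. The F-test of Prkce on rc_AA799421_at was lost with zeros raised to the floor (adjusted p = 0.0790), median scaling (0.0510), quantile normalization (0.0592) and no filter (0.190). That of Prkcb on X04139_s_at had an adjusted p of 0.0549 with no filter, and the isoform pair Prkce over Prkcz one of 0.0811 with quantile normalization. The causes were not tested. No paired analysis was possible beyond the region block because the labels give no replicate numbers. The 2 dim probe sets have no test of region or of cocaine, and that of Prkca enters only the isoform pairs.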
